A study of Homo sapiens with 6 samples.

Results

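The genes described here encode proteins of the small (40S) ribosomal subunit. They were taken from a fixed list of 28 genes, RPSA, FAU and 26 genes with RPS symbols, and all 28 were found among 20043 nuclear protein-coding genes of the RefSeq table. A site was counted for a gene if its central base lay within the span of the gene, on the strand that held most of the sites of that gene, and outside genes for C/D box (SNORD) and H/ACA box (SNORA) small nucleolar RNAs. By this rule the 28 genes held 466 of the 34781 USP39 binding sites, or 1.34% of the list. USP39 belongs to the spliceosome, the machine that removes introns, and acts with its U4/U6.U5 tri-snRNP particle.

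The sites come from iCLIP2 in HEK293T cells of wild-type genotype, a line derived from human embryonic kidney. Proteins were joined to RNA with 254 nm UV light, an anti-USP39 antibody was used, and RNA was taken from a high and a low region of the membrane with 3 libraries each. The sites were deposited as 1 merged list, so the high and low regions cannot be told apart, no value has a replicate error, how many reads support a site is unknown, and no test between conditions or gene groups was run. RNA abundance was not measured, and no sample without UV light was analysed here. How far either accounts for a count below was not tested.

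The small subunit decodes messenger RNA. Its proteins surround one ribosomal RNA, and are grouped here by their place in the particle into head, platform with the mRNA exit side, and body. Ribosomal protein genes are short and strongly transcribed, have several introns, and often carry small nucleolar RNAs within those introns. Their mRNAs usually begin with a cytosine followed by an unbroken run of pyrimidines, the 5' terminal oligopyrimidine (5' TOP) motif, through which growth signals control their translation. RPS27A and FAU encode fusion proteins, in which the ribosomal protein RPS27A is joined to ubiquitin and that of FAU to a ubiquitin-like protein.

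All 28 genes had sites, against a background of 23.1% of all protein-coding genes with at least 1 site. Each also had 5 or more, where the background was 8.83%. The number ran between 6 and 33, with a median of 15 sites, against a median of 14 over the 47 large subunit genes and of 3 over the 4545 other protein-coding genes with a site. Over the summed spans the density was 2.45 sites per kb in the small subunit genes, 2.67 in the large subunit genes and 0.0242 in all other protein-coding genes. Other genes with spans no longer than the longest member (27723 nt) had a density of 0.132 sites per kb. The median density per gene with a site was 3.78 sites per kb in the small subunit genes, 3.08 in the large subunit genes and 0.121 in the other genes (0.329 in those within the same length), so the order of small and large subunit genes depends on the measure. The 8 genes with the most sites held 42.9% of the 466.

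Sites clustered at the first bases of these genes. In what follows base 1 is the first base of the gene span, base -1 is the base before it, and a site is placed by its centre. In 23 of the 28 genes a site was centred between base -2 and base 10, against a background of 5.74% of all protein-coding genes with a site. The share was 82.1% in the small subunit genes, 63.8% in the large subunit genes and 4.66% in the other protein-coding genes with a site, or 7.33% in those with spans no longer than the longest member. A share of genes can rise with the number of sites per gene, which differed between these groups. Counted as sites, this window held 35 in the small subunit genes, beside 466 in their spans. It held 41 beside 788 in the large subunit genes and 240 beside 31395 in the other genes. The position most often used was base -2, in 13 of the 28 genes (46.4%), where the background was 2.38%. It was also the most frequent position in the large subunit genes (25.5%) and in the other genes (1.87%, or 3.05% within the same length). A second group of sites lay at bases 3 to 6, with 4 genes at base 3, 6 at base 4, 3 at base 5 and 2 at base 6. No site of the 28 genes lay between bases -30 and -4, whereas bases 11 to 50 held 15. A site centred on base -2 covers bases -4 to 1 and so lies almost wholly before the annotated RNA. The list gives no cDNA ends, and whether other transcription starts, or cDNAs that ran to the end of the RNA, gave these sites was not tested.

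**Figure D1:**
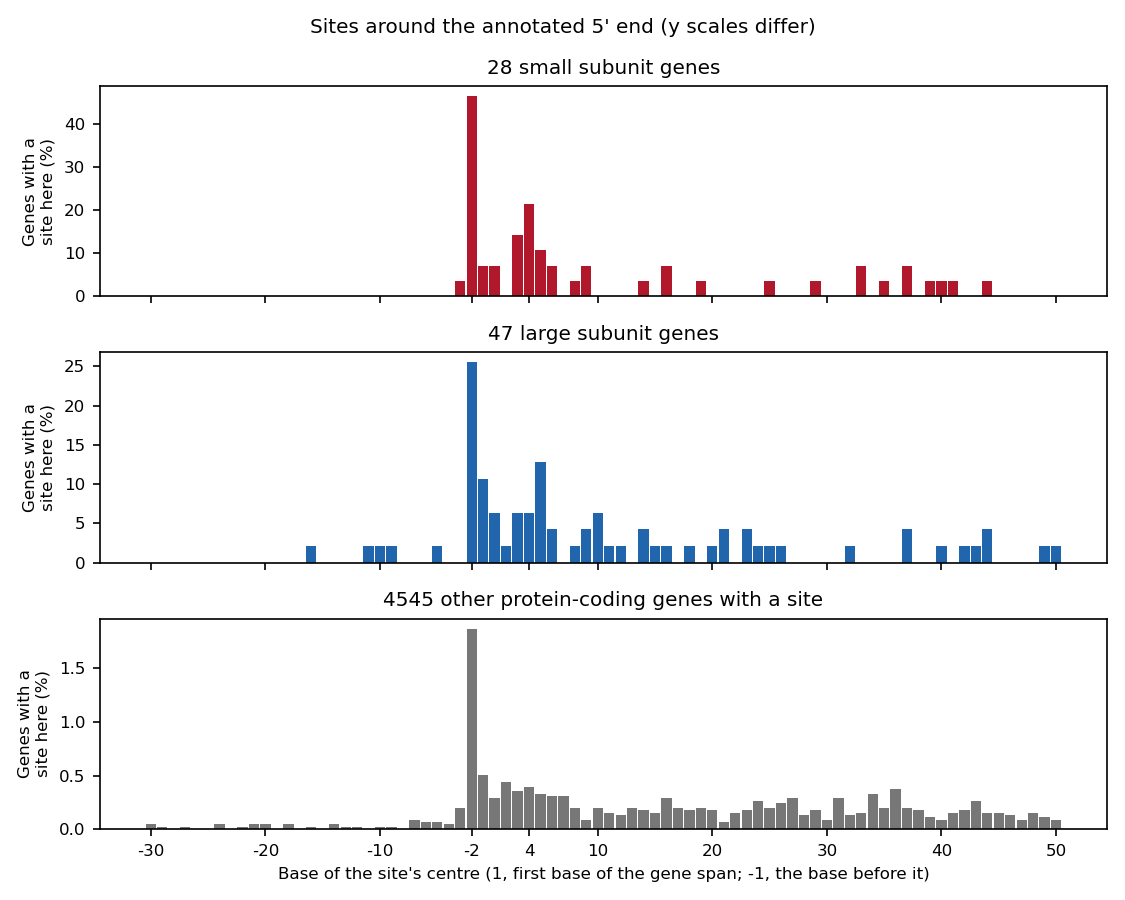
Share of genes (vertical axis, percent; the scale differs between panels) with a site centred on each base around the 5' end of the gene span (horizontal axis), for the 28 small subunit genes, the 47 large subunit genes and the 4545 other protein-coding genes with a site. All panels peak at base -2, at 46.4%, 25.5% and 1.87% of genes.

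The sequences below show where the sites fall in the pyrimidine run. Each has 10 bases before and 20 bases from base 1 of a start listed in RefSeq (GRCh38.p14), read 5' to 3' on the gene's strand, with the bases covered by USP39 sites in capitals. The first 6 have abutting sites centred on bases -2 and 4. They are followed by RPS19 and RPS24, in which the second site lies at base 5 or 6. The last 6 starts do not begin with a cytosine and at least 4 further pyrimidines, and are shown for contrast.
RPS3, chr11:75399508-75399537, plus strand: cgagccACTTCCTTTCCTTTCagcggagcg
RPS9, chr19:54200848-54200877, plus strand: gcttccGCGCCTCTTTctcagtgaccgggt
RPS13, chr11:17077648-17077677, minus strand: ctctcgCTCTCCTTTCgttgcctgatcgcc
RPS23, chr5:82278335-82278364, minus strand: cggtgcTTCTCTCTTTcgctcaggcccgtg
RPS25, chr11:119018324-119018353, minus strand: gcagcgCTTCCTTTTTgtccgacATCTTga
RPS27A, chr2:55232678-55232707, plus strand: ggcgttCTTCCTTTTCgatccgccatctgc
RPS19, chr19:41860245-41860274, plus strand: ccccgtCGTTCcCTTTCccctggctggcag
RPS24, chr10:78033853-78033882, plus strand: aatcgtGGTTCtcTTTTCctccttggctgt
RPS15, chr19:1438386-1438415, plus strand: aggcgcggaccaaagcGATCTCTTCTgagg
RPS28, chr19:8321486-8321515, plus strand: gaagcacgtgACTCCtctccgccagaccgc
RPS4X, chrX:72277229-72277258, minus strand: ctccagccccaatttctacgcgcaccggaa
RPS7, chr2:3575250-3575279, plus strand: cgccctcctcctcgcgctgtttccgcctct
RPS26, chr12:56041908-56041937, plus strand: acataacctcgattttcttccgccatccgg
RPS29, chr14:49598691-49598720, minus strand: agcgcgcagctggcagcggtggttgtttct

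A start was listed in RefSeq for 25 of the 28 genes, all but RPS2, RPS15A and RPS20. In 19 of the 25, a listed start began with a cytosine and at least 4 further pyrimidines, read on the gene's strand only, and each of these 19 genes had a site centred on bases -2 to 10 of a listed start. The other 6 genes are those shown for contrast, and 2 of them had such a site, RPS15 at base 9 and RPS28 at base 3. RPS4X had its first sites at bases 29, 35 and 40, and RPS7 at bases 64 and 70. In the large subunit genes 27 of 28 with the pyrimidine start and 5 of 10 without it had a site there. Among other protein-coding genes with a site, the shares were 15.4% of 318 genes with the pyrimidine start and 4.65% of 3504 without it. With spans no longer than the longest member, these shares were 24.1% of 170 and 7.3% of 1671 genes. Among all protein-coding genes with a site and a listed start, 9.4% of 3885 had the pyrimidine start. Counted by start instead of by gene, it was found at 4.54% of all 22199 listed starts of protein-coding genes. RPS27A has 3 listed starts, and its sites at bases -2 and 4 belong to the one farthest downstream, at base 786 of the gene span. Counted from any listed start or from the span, 24 of the 28 genes had a site at bases -2 to 10, and the 4 without were RPS4X, RPS7, RPS26 and RPS29. Whether the listed starts of these 4 genes are those used in these cells was not tested. The only listed start of RPS29 is followed by 12335 nt without a site on its strand.

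The bases within the sites near the starts were mostly thymine, which is uracil in the RNA. For 29 sites of these genes centred on bases 3 to 48 of a listed start, the 5 bases were 55.9% T, 31.0% C, 8.97% G and 4.14% A. The first 50 bases of the same starts held 25.1% T, 30.9% C, 30.8% G and 13.2% A. The T share in sites of the same window was 56.7% over 42 sites in large subunit genes and 53.4% over 387 sites in other protein-coding genes. A high T share was thus found at sites of this window in all gene groups. UV light joins proteins to uracil more readily than to other bases, and its part in these shares was not tested.

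Pooled over the 28 genes, more sites lay in the first than in the last 20% of the annotated gene span. The first 20% of the span held 157 of the 466 sites (33.7%, Wilson 95% interval 29.5% to 38.1%, counting error only), and the last 20% held 79 (17.0%, interval 13.8% to 20.6%). Both intervals treat sites as independent, although sites cluster within genes. The large subunit genes had 31.0% and 18.3% of their sites in these parts. In the other protein-coding genes the order was the reverse, with 17.8% in the first and 36.7% in the last 20%, and other genes with spans no longer than the longest member had 18.2% and 32.5%. In the last 10% of the span lay 7.51% of the sites of small subunit genes, 9.64% of those of large subunit genes and 25.0% of those of other genes. Of the 28 genes, 18 had more sites in the first 20% than in the last, 7 had more in the last, and 3 had equal numbers. RPS18, with 7 and 9 sites, and RPS15, with 4 and 8, were among the 7. Among the 18 were RPS24 with 17 and 0, RPS20 with 14 and 0 and RPS3 with 10 and 0. The annotated spans of these genes run far beyond their last sites. The pooled shares thus depend on where spans were annotated to end, and a 5' preference within the transcribed RNA was not tested.

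**Figure D2:**
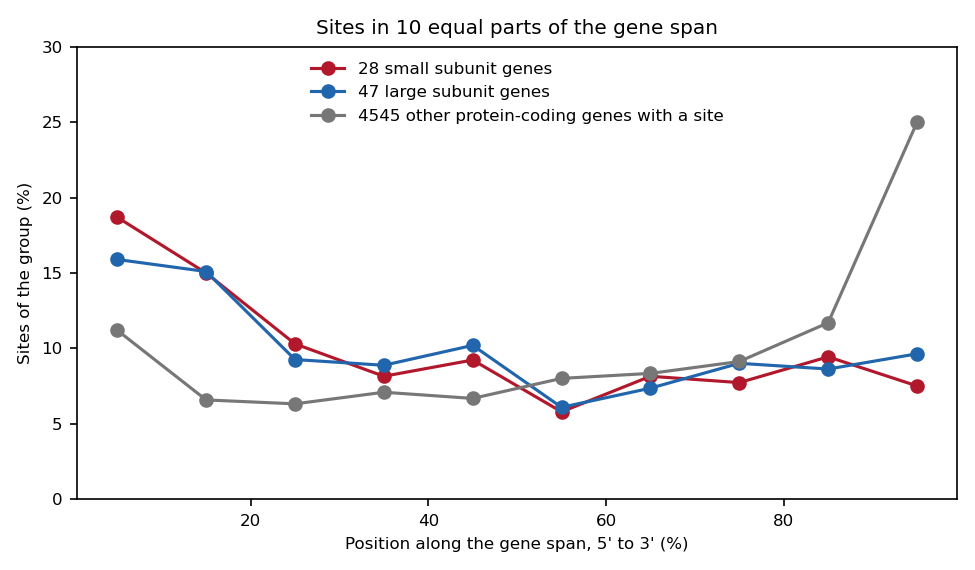
Share of sites (vertical axis, percent of the sites of each group) in 10 equal parts of the gene span (horizontal axis, 5' to 3'). The small subunit genes start at 18.7% and end at 7.51%, the large subunit genes start at 15.9% and end at 9.64%, and the other protein-coding genes start at 11.2% and end at 25.0%.

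The spans of several genes run far beyond their sites, since a span covers every annotated transcript and exons were not known here. RPS3, RPS24 and RPS29, the 3 genes spanning over 20 kb, had all their sites within 6113, 6775 and 2731 nt. In RPS3 and RPS24 no site lay in the last 16668 and 16163 nt, and in RPS29 sites were absent from the first 12335 and the last 12656 nt. RPS20 had all 14 sites in the first 1374 of 7253 nt. In 11 genes the sites ran over more than 90% of the span. In 12 genes the last 20% was empty, but only RPS29 had no site in the first 20%. The last site of a gene lay at least 46 nt before its annotated end, the nearest being in FAU, followed by RPS25 at 53 nt and RPS21 at 59 nt. With the 3 long spans left out, a choice made after the data were seen, the density was 3.54 sites per kb and the shares of the first and last 20% were 31.5% and 19.1%.

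**Figure D3:**
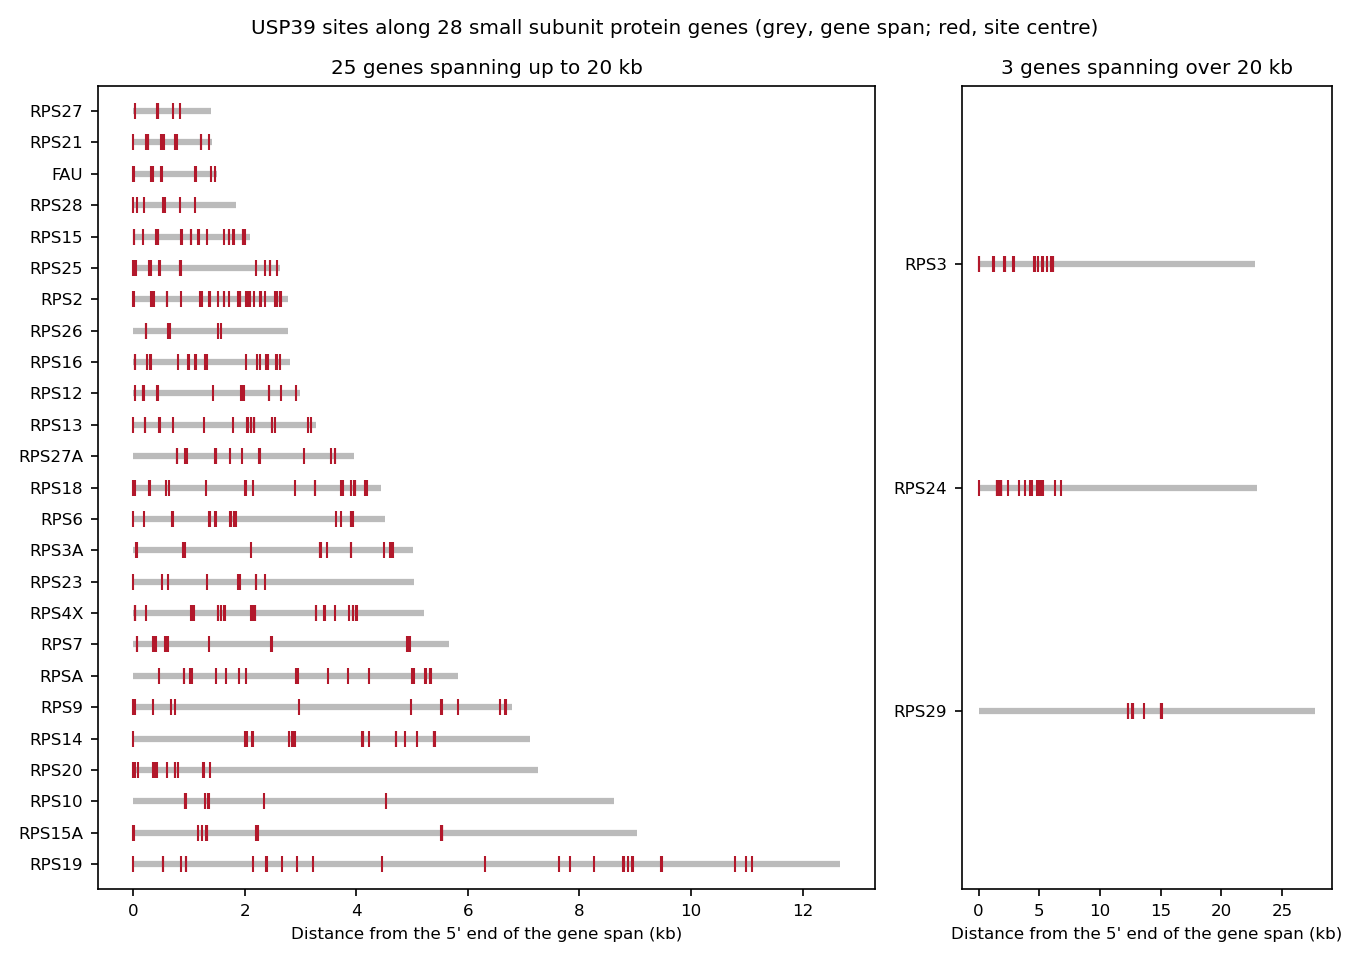
Centres of USP39 sites (red marks) along the span of each gene (grey bar), in kb from the 5' end (horizontal axis), for 25 genes spanning up to 20 kb and 3 spanning over 20 kb. Marks stand at the left end of most bars, fill the bars of RPS2 and RPS15, and cover only the left part of RPS3, RPS24 and RPS20.

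The 6 genes of the platform and the mRNA exit side held 116 sites, or 4.66 per kb of their summed spans. RPS2, grouped here although its protein lines the mRNA entry channel, had the most sites of all 28 genes. Its 33 sites lay on chromosome 16 between 1962182 and 1964826, in a span of 2769 nt, which gave the highest density at 11.9 per kb. Up to 12 of them fell within 500 nt, and the first were at bases 3 and 8. RPSA, related to the laminin receptor and placed at the exit side, had 23 sites on chromosome 3 between 39407176 and 39412055. The first and the last 20% of the gene held 7 of them each, and a further site was centred on base -1. RPS14 encodes a platform protein, and the gene lies in the region deleted in the 5q- form of myelodysplastic syndrome. This gene had 22 sites on chromosome 5 between 150444320 and 150449741. Its first site was at base 1, the next at base 2008, and none lay in the last 1687 nt. RPS21 had 15 sites in a span of only 1418 nt, and its density of 10.6 per kb was the second highest. RPS3A had 17 sites. RPS26, which contacts mRNA at the exit channel, had 6 sites on chromosome 12, at bases 221, 227, 627, 664, 1513 and 1567, and shared the lowest number with RPS27.

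The 12 head genes held 198 sites, or 1.98 per kb of their summed spans, which include the long spans of RPS3 and RPS29. The groups stood in another order by the median density per gene, which was 4.07 sites per kb in the head, 3.67 in the platform and exit side group and 3.12 in the body group, so no order of the groups is drawn. RPS19, the first gene linked to Diamond-Blackfan anaemia, led the head group with 27 sites on chromosome 19 between 41860257 and 41871342. These were scattered over 11081 nt, and 21 sites remained when those within 50 nt were joined. RPS18, near the tRNA sites, had 23 sites on chromosome 6 between 33272073 and 33276263, beginning at bases 1, 6 and 33. RPS15, whose tail reaches the decoding centre, had 22 sites on chromosome 19 between 1438402 and 1440393, in a span of 2100 nt. Its density of 10.5 per kb was close to that of RPS21. RPS16, another head protein near the tRNA sites, had 21 sites at 7.47 per kb. RPS3, at the mRNA entry channel, had 19 sites, while RPS25 and RPS27A had 15 each and RPS12 had 14. RPS20 also had 14, on chromosome 8 between 56073131 and 56074505. RPS10, a protein ubiquitinated when ribosomes collide, had 9 sites, all of which also lie in the span of the read-through gene RPS10-NUDT3, so the transcript is uncertain. RPS28 had 8 sites, at bases 3, 60, 188, 543, 552, 570, 842 and 1102, the last of them also within the span of KANK3, which is annotated on the opposite strand.

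RPS29 was the only one of the 28 genes with sites on both strands. It had 11 sites on its own strand, on chromosome 14 between 49583642 and 49586377, and 4 on the other. Of these 4, 3 lay in RN7SL1, a gene for the RNA of the signal recognition particle within the span of RPS29, and the other at 49586577 to 49586581, with its centre 1 base before RN7SL1. For all 25 genes with a listed strand, most sites lay on that strand. Its density, 0.397 per kb, was the lowest of the 28.

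The 10 body genes held 152 sites, or 2.32 per kb of their summed spans, which include the long span of RPS24. RPS4X, encoded on the X chromosome, had 27 sites between 72273239 and 72277222. They fell into groups, of which the largest had 5 sites with neighbours within 50 nt, and the last 1199 nt had none. RPS24, another Diamond-Blackfan anaemia gene, had 23 sites on chromosome 10 between 78033866 and 78040645. Of these, 11 lay within 500 nt. RPS13 had 19 sites, RPS6, the ribosomal substrate of S6 kinases, had 17, and RPS7 had 14. RPS9, at the entry channel, and RPS15A had 13 each. FAU had 11 sites, which lay between 65120674 and 65122132 of chromosome 11. Their density of 7.31 per kb was the highest of the body group and the fifth of all. RPS23, which reaches into the decoding centre, had 9 sites, all in the first 2368 of 5035 nt. RPS27, a zinc finger protein, had 6 sites on chromosome 1, at bases 37, 435, 441, 451, 707 and 847. Its span of 1394 nt is the shortest of the 28.

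**Figure D4:**
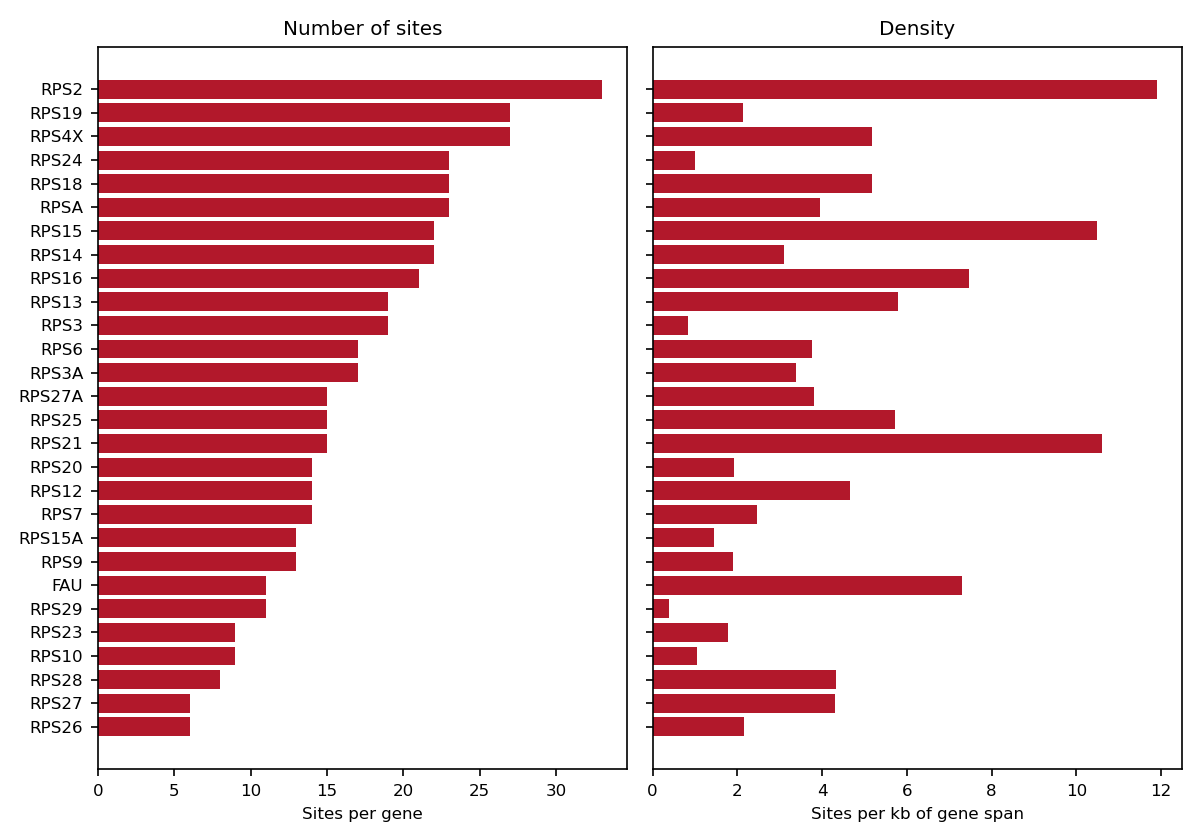
Number of sites (left) and sites per kb of gene span (right) for each of the 28 genes, in order of the number of sites. RPS2 leads both panels, with 33 sites and 11.9 per kb, while RPS19 and RPS24 stand high in number and low in density.

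The number of sites followed the length of the gene only weakly. Across the 28 genes Spearman's rho between the number of sites and the span was 0.19, and Pearson's r was 0.101. Without the 3 longest spans rho was 0.185. The points share 1 merged list, and no p is given.

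Neighbouring sites were close. The 438 pairs of neighbours had a median distance of 63 nt between their centres, against 89 nt in the large subunit genes, 268 nt in the other protein-coding genes and 173 nt in those other genes with spans no longer than the longest member. In 205 pairs (46.8%, Wilson 95% interval 42.2% to 51.5%, counting error only) the distance was at most 50 nt, against 39.7% in large subunit genes and 20.4% in the other genes. The share was 24.5% in other genes with spans no longer than the longest member. The interval treats pairs as independent, although adjoining pairs share a site. Sites per kb also differed between these groups, and distances shorten as density rises. The part of density in the distances here and below was not tested. At most 10 nt separated 81 pairs (18.5%), against 13.0% in large subunit genes and 7.62% in the other genes (9.08% within the same length). Of these, 26 pairs, in 18 genes, abutted with centres 5 nt apart, and within the spans no gene had more than 2 abutting sites in a row. With the site at base -2 counted, RPS3 had 3 in a row, at bases -2, 4 and 9. RPS4X and RPS14 had the most abutting pairs, 4 each. With sites within 50 nt joined, 261 of the 466 sites remained, between 4 and 21 per gene.

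Large gaps lay between the groups. A distance over 1000 nt separated 23 pairs in 13 genes, which is 5.25% of the pairs, against 5.53% in large subunit genes, 29.0% in the other genes and 18.4% in those other genes with spans no longer than the longest member. The widest distance was 3280 nt, in RPS15A, between bases 2242 and 5522. RPS7 had 2415 nt between bases 2495 and 4910, and RPS9 had 2221 nt between bases 746 and 2967. The longest stretch without a counted site lay between sites in 16 genes, after the last site in 11, and before the first in RPS27A. RPS2 had the shortest such stretch, 342 nt. Sites in small nucleolar RNA genes were not counted, so some of these stretches are not empty of USP39 sites. The longest stretches of RPS12 and RPS13 hold sites in SNORD101 and SNORD14A. The distance of 1209 nt between bases 9 and 1218 of RPS3 holds sites in SNORD15A. Since exons were not known, gaps could not be assigned to introns.

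**Figure D5:**
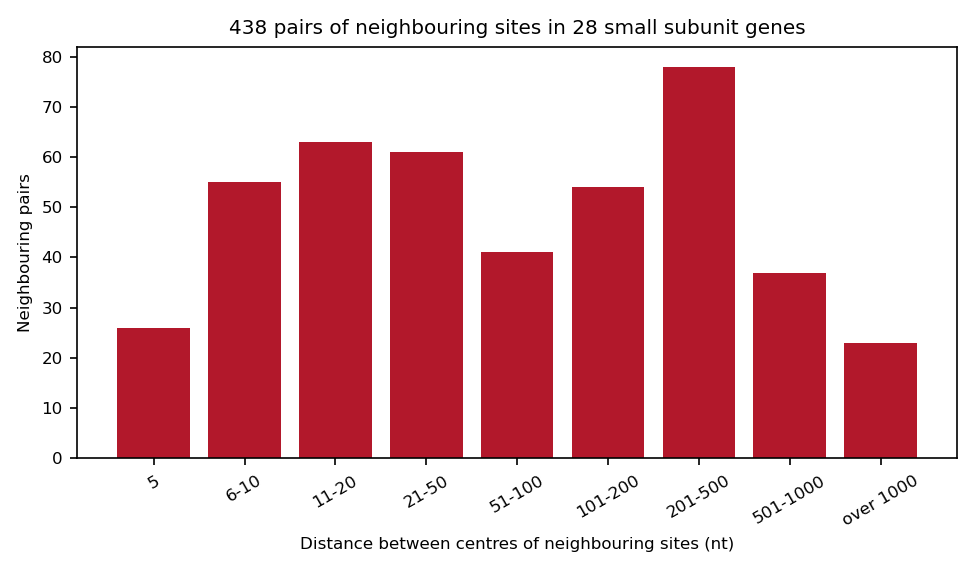
Number of neighbouring pairs (vertical axis) by the distance between site centres (horizontal axis, in classes of unequal width) for the 438 pairs in the 28 genes. The class above 200 and up to 500 nt holds the most pairs, 78, and 205 pairs lie at 50 nt or less.

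Small nucleolar RNA genes within the members were left out of these counts. The spans of RPSA, RPS2, RPS3, RPS3A, RPS12, RPS13 and RPS20 hold 14 such genes, 13 of them with sites. RPS12 hosts SNORD101 and SNORD100, with 4 sites each, and SNORA33, with 2. RPSA hosts SNORA62 with 5 sites and SNORA6 with 4. In RPS3, SNORD15B had 4 sites and SNORD15A had 3. In RPS13, SNORD14A had 3 and SNORD14B had 2. RPS2 holds SNORA64 with 3 sites and SNORA10 with 2, RPS3A holds SNORD73A with 2 sites and SNORD73B with 0, and RPS20 holds SNORD54 with 1.

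Small subunit protein genes have many processed copies in the genome. The RefSeq table lists 656 pseudogenes of the 28 genes by symbol, and 15 of them held 25 sites in all, with 3 each in RPS2P5, RPS15P4 and RPS28P7. How reads that match both a gene and its copies were treated is not given in the sources used here, so counts in exonic sequence are uncertain.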

How the data were processed

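USP39-bound RNA from 6 HEK293T libraries (high and low membrane regions, 3 each) was represented by 1 merged site list. The deposited score is 0 for every site, so only positions and strands were used; per-library depth is unknown. Per the submitters' processing notes, which give no roles, the authors' tools were STAR 2.7.3a, UMI-tools 1.1.2, bedtools 2.29.2, SAMtools 1.10 and FastQC 0.11.9, and the build was GRCh38.p12. Which caller and filters made the sites, and which libraries were merged, is not given in the sources used here.

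Gene spans came from a RefSeq table and start sequences from RefSeq promoter entries, both of GRCh38.p14, a later patch release with the same chromosome coordinates. The same rule was applied to every protein-coding gene. Where both strands held equal numbers of sites, the plus strand was taken, which touched 18 genes and no ribosomal protein gene. The 28 genes and the gene lists were chosen with earlier results of these data known, and the windows at gene starts after seeing them. All 28 genes are given. Those described most fully have the most or fewest sites, the highest density, sites on both strands or small nucleolar RNAs. RPS7, RPS10 and RPS23, among others, were singled out after their values were seen. On simulated sites in 200 genes, 100% of genes had all positions recovered. Counts were made in Python 3.11.15 with pandas 2.3.3 and numpy 2.4.6, intervals with scipy 1.17.1, and figures with matplotlib 3.10.9.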

Additional observations from a re-analysis of the deposited data

Results flagged for a closer look

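The span rule left out 39 sites in SNORD and SNORA genes within 7 of the 28 genes, a signal outside the counts above. RPS12 had 10 of them, RPSA 9 and RPS3 7.

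On the strand opposite to RPS29 there were 4 sites, and 3 of the 4 lay in RN7SL1.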

How the results depend on the processing

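Joining sites within 50 nt gave 261 sites in place of 466, a median of 8.5 per gene in place of 15, a density of 1.37 per kb in place of 2.45, and a median distance of 266 nt between neighbours in place of 63. The smaller numbers follow from the joining itself, and the share of neighbours within 50 nt then has no value. That share was 46.8%, and it was 32.9% for 20 nt and 56.2% for 100 nt. The other comparisons kept shares within their counting intervals, and counts, medians and densities within 1.5 times the reported value. They used any overlap with the span, both strands, small nucleolar RNA sites kept or their genes widened by 20 nt, other small RNA genes or overlapping genes left out, genes weighted equally, and the median of the medians per gene. The same held for the alternatives chosen after seeing the data, which left out the 3 longest spans or moved the window at the start. Leaving out the 3 longest spans gave a density of 3.54 sites per kb in place of 2.45. With a window at bases 1 to 10, 17 of the 28 genes had a site, against 23 for bases -2 to 10. With sites in other protein-coding or lncRNA genes left out, 27 of the 28 genes had a site, RPS10 being the one without. Leaving out a replicate was not run, since the list is merged. No paired analysis was possible because no value belongs to one library.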
